A study of Mus musculus with 4 samples.

Results

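The genes described here are 10 genes of protein turnover in skeletal muscle: the ubiquitin ligase genes Trim63, Fbxo32, Trim72 and Asb2, the related tripartite motif genes Trim54 and Trim55, the kelch genes Klhl40 and Klhl41, and the transcription factor genes Foxo1 and Foxo3. They were chosen by name, with earlier results of these data known, and all 10 were found among the 12808 genes that could be named in the assembled transcripts. The transcripts came from C2C12 cells, a line of mouse myoblasts; on serum withdrawal they leave the cell cycle and fuse to multinucleate myotubes. The labels give the strain C57BL/6 for every library and name no other allele or agent. Cells of the growth library were taken while growing exponentially in DMEM that held fetal bovine serum at 20%, at -24 h on the study's clock. The other libraries were taken 60, 120 and 168 h after confluent plates were moved to low serum. There was 1 library of polyadenylated RNA for each time point, so no difference below has a replicate check and none was tested.

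Ubiquitin ligases choose the proteins that are marked with ubiquitin for breakdown by the proteasome. Trim63 (MuRF1) and Fbxo32 (atrogin-1) are the ligase genes best known from muscle wasting, and Foxo factors, which insulin and growth factor signalling through Akt keeps out of the nucleus, are known to raise their transcription. Klhl40 and Klhl41 encode kelch proteins of the sarcomere that are known to stabilise nebulin and other thin filament proteins, and mutations in either cause nemaline myopathy.

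Levels are in FPKM, a fragment density that is divided by transcript length and by library size, so that genes of different length can be compared. The level of a gene is the sum over the assembled transcripts that were given its name. A gene is called not assembled in a library where no transcript was given its name. This need not mean that the gene was not expressed. Tnnt3, for example, had 153 FPKM at 60 h, 0 at 120 h and 143 FPKM at 168 h, and Mtor had 15.3, 0 and 21.6 FPKM. The value after ± is the distance to the deposited confidence limit, with the distances of several transcripts combined in quadrature. It covers counting error and the division of fragments between transcripts, and not the spread between cultures. Because a gene assembled in several pieces is counted more than once by the sum, 2 other measures are given where they differ. The intron measure sums, for each intron assembled in a library, the FPKM of the transcripts holding it and takes the median over introns. The union measure divides the fragments in assembled transcripts by the length of the union of the gene's exons over all 4 libraries. It is lowered where part of a gene was not assembled in a library. The words rose and fell are used where FPKM + 1, compared as log2 values, differed 2-fold or more, the higher library reached 1 FPKM and the confidence intervals were apart.

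The promoters of 8 of the 10 genes were in the RefSeq promoter table for build GRCm38.p6, which holds 250 bases before and 50 bases after each start, and Asb2 had 2 entries because it has 2 annotated starts. They are shown because the genes differed in their time course, and because the 2 Asb2 starts were used differently. Capitals mark the Foxo element GTAAACA on either strand, the myogenic E-box CAGCTG and the MEF2 motif. Positions are counted from the start site. The Trim63 promoter (chr4:134314870-134315169, plus strand) held the Foxo element on the minus strand from position -194 and CAGCTG from position -72.
Trim63: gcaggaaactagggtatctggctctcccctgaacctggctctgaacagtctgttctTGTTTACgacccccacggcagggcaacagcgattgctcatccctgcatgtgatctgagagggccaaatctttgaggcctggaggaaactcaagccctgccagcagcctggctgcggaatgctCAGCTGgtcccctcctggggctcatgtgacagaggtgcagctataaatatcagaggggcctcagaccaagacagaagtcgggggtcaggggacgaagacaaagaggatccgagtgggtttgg
The Klhl41 promoter (chr2:69669870-69670169, plus strand) held CAGCTG from position -127 and the MEF2 motif from position -63.
Klhl41: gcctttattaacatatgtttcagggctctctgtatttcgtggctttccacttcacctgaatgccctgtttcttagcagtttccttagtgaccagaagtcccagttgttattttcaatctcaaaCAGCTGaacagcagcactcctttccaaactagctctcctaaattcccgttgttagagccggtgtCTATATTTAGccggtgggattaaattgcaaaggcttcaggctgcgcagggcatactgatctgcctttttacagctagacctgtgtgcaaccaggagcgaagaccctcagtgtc
At Asb2 the upstream start (chr12:103355952-103356251, minus strand) held none of the motifs in capitals, and the inner start (chr12:103338341-103338640, minus strand) held CAGCTG from position 22, within the transcribed part.
Asb2 upstream start: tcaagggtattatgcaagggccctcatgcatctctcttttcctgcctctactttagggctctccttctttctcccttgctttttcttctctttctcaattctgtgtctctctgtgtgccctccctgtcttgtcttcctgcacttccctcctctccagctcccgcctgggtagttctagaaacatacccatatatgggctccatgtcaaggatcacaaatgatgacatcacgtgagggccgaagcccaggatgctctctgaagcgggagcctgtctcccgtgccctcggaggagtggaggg
Asb2 inner start: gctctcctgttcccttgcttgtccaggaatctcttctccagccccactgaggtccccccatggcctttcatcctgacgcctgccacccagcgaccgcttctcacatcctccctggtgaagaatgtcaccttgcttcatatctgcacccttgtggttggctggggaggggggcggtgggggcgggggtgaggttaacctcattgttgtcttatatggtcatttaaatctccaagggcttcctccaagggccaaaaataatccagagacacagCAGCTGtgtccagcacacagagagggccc
The Foxo element was in 1 of the 9 promoters, that of Trim63, against 3.65% of all 32851 promoters of the same length. CAGCTG was in 5 of the 9, those of Trim63, Trim54, Klhl40, Klhl41 and the inner start of Asb2, against 16.3% of all promoters. The general E-box CANNTG, of which CAGCTG is a special case, was in 8 of the 9 against 72.3%, and the MEF2 motif in 1 of the 9 against 3.19%. These are matches of letters in these windows and nothing more. The Trim72 entry belongs to another annotated start than that of the assembled transcripts.

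The study's libraries held between 24488681 fragments (120 h) and 48228887 fragments (60 h), as implied by the deposited limits, and between 86.9% and 89.7% of them lay in assembled transcripts. The 5 markers of dividing cells summed to 356 FPKM in growth and 116, 48.6 and 19.6 FPKM at 60, 120 and 168 h. The 7 myotube markers summed to 49.8 FPKM in growth and 8336, 11768 and 10755 FPKM later. Of the 5 myoblast markers Pax3 was not assembled in any library. The others summed to between 661 FPKM in growth and 2386 FPKM at 168 h, and they did not move together: Des had 452 and 2286 FPKM in these libraries, Myod1 193 and 86.1 FPKM, and Pax7 2.93 and 0.556 FPKM. Of the 6 macrophage and endothelial markers, Ptprc, Adgre1 and Pecam1 were never assembled and the summed level was between 0.308 and 15.3 FPKM. Of the 5 adipocyte markers, Adipoq, Plin1 and Cebpa were never assembled and the sum was between 2.83 and 43.2 FPKM. Nearly all of this sum was Lpl, with 2.83 FPKM at 60 h and 42.5 FPKM at 168 h, where Fabp4 had 0.750 FPKM. The 5 smooth muscle markers summed to 2327, 1760, 955 and 499 FPKM in the order of time, and they did not move together. Tagln had 700.1 FPKM in growth and 10.04 FPKM at 168 h, and Cnn1 43.5 and 1.53 FPKM. Acta2 had 1553 FPKM in growth, 1592 FPKM at 60 h and 405 FPKM at 168 h. Smtn went the other way, with 30.7 FPKM in growth and 83.4 FPKM at 168 h. The 5 cardiac markers summed to 21.0, 51.3, 81.2 and 64.2 FPKM, and Nppa was never assembled.

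**Figure D1:**
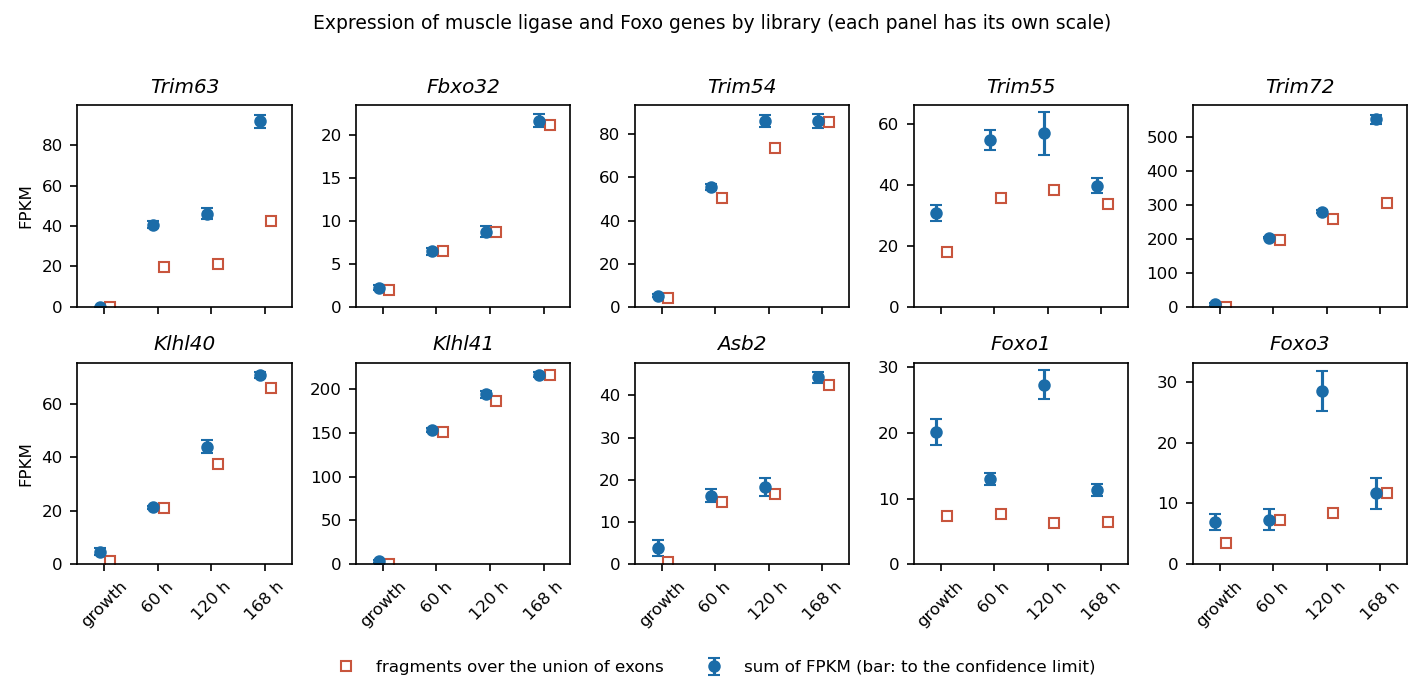
FPKM of each gene (vertical axis, own scale in each panel) in the 4 libraries (horizontal axis), as the sum over transcripts (filled circles, bars to the confidence limits) and as fragments over the union of exons (open squares). Trim63, Fbxo32, Trim72, Klhl40, Klhl41 and Asb2 climb at each step by both measures. The 60 and 120 h intervals overlap for Asb2 by the sum and for Trim63 over the union of exons. The peak of Foxo1 and Foxo3 at 120 h, at 27.3 and 28.4 FPKM by the sum, is absent over the union of exons.

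Between growth and 60 h, 7 of the 10 genes rose and none fell: Trim63, Fbxo32, Trim54, Trim72, Klhl40, Klhl41 and Asb2. Of all 12491 genes compared, 11.0% rose and 15.5% fell by the same rule. The same 7 genes rose by the other 2 measures. Of all genes, 11.0% rose and 11.4% fell through the introns, and 11.1% rose and 10.2% fell over the union of exons. The median log2 ratio of the 10 genes was 1.89, and that of all genes was -0.19, or 0.02 with libraries scaled by the median ratio. Of all called genes 41.6% were higher at 60 h, and 55.7% under that scaling. In RNA from whole cultures, fewer cells expressing a gene and less of its RNA per cell cannot be told apart. The markers of dividing cells, of myotubes, of smooth muscle and of cardiac cells moved between the same libraries, and their part in these differences was not tested.

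Trim63, whose ligase product binds titin and marks myosin and other sarcomere proteins, was not assembled in growth. It had 40.6 ± 1.82 FPKM at 60 h, 46.1 ± 2.77 FPKM at 120 h and 91.9 ± 3.19 FPKM at 168 h. By the sum it went from no assembled transcript to a level close to that of 120 h within the first interval. It was highest in the last library. At 120 h only a front piece of the gene was assembled. The ratio of 120 h to 60 h was 1.14 by the sum and 1.82 through the introns. No fold is given against growth. The ratio of 168 h to 60 h was 2.26 by the sum and 2.17 over the union of exons, and Trim63 rose in that comparison. From 120 h to 168 h the ratio was 1.99 by the sum, with a log2 ratio of 0.98, just short of the 2-fold limit. Through the introns that ratio was 1.41.

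The transcripts of Trim63 were incomplete in every library that had them. A front piece of 5 exons had 25.3 ± 1.38, 46.1 ± 2.77 and 65.2 ± 2.42 FPKM at 60, 120 and 168 h. A rear piece had 15.3 ± 1.19 FPKM at 60 h and 26.7 ± 2.09 FPKM at 168 h and was not assembled at 120 h. No transcript held the fifth or the sixth intron, of 1807 and 516 bases, of the 9 annotated exons. Both the front piece and the sum were in the order of time with intervals apart at each step. By the union measure the gene had 19.7, 21.4 and 42.7 FPKM, and the intervals of 60 and 120 h overlapped.

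Fbxo32, which encodes the substrate receptor of a cullin ligase that acts on eIF3f and MyoD, was assembled as 1 complete transcript of 9 exons in all 4 libraries. Its level was 2.23 ± 0.322 FPKM in growth, 6.47 ± 0.400 FPKM at 60 h, 8.75 ± 0.655 FPKM at 120 h and 21.6 ± 0.774 FPKM at 168 h. The 4 intervals did not overlap, and each library was higher than the one before it. The ratio was 2.90 at 60 h against growth, 1.35 at 120 h against 60 h and 2.47 at 168 h against 120 h. Fbxo32 thus rose at the first step and at the last, and it was 9.71-fold higher at 168 h than in growth.

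Trim54 (MuRF3), whose product associates with microtubules and the Z-disc, had 5.13 ± 0.677 FPKM in growth, 55.6 ± 1.59 FPKM at 60 h, 86.3 ± 2.87 FPKM at 120 h and 86.1 ± 3.20 FPKM at 168 h. It rose 10.8-fold at the first step, and by the sum the last 2 libraries were within each other's intervals. By the union measure the last 2 values were 73.8 ± 2.45 and 85.9 ± 1.98 FPKM, with intervals apart.

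Trim55 (MuRF2), whose product binds titin and microtubules in the forming sarcomere, was the highest of the 10 genes in growth. It had 30.7 ± 2.61 FPKM in growth, 54.6 ± 3.31 FPKM at 60 h, 56.8 ± 6.97 FPKM at 120 h and 39.7 ± 2.56 FPKM at 168 h. Its log2 ratio at 60 h against growth was 0.81 by the sum and 0.96 over the union of exons, both short of the 2-fold limit. With libraries scaled by the median ratio of genes the log2 ratio was 1.04 and the gene passed the limit.

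Trim72 (MG53), whose product is known for membrane repair and for marking the insulin receptor substrate IRS1, was low in growth and the highest of the 10 genes at every later time. In growth it was listed at 6.65 ± 2.99 FPKM, which rested on 3 short single-exon pieces with 26 fragments in all, and the same fragments over the union of exons gave 0.275 FPKM. It had 204 ± 2.30 FPKM at 60 h, 281 ± 3.87 FPKM at 120 h and 553 ± 12.9 FPKM at 168 h. The ratio at 60 h against growth was 30.7 by the sum and 717 over the union of exons, and the size of the rise depends on this choice.

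The last value of Trim72 included a second form. At 168 h the complete transcript had 274 ± 3.62 FPKM, and a form of 3 exons that was assembled in no other library had 279 ± 12.4 FPKM. Over the union of exons Trim72 had 197, 259 and 307 FPKM at 60, 120 and 168 h. Trim72 rose at 168 h against 60 h by the sum, with a ratio of 2.71, and not over the union of exons, with a ratio of 1.56.

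Klhl40 had 4.66 ± 1.32 FPKM in growth, 21.2 ± 0.697 FPKM at 60 h, 43.9 ± 2.45 FPKM at 120 h and 70.5 ± 1.17 FPKM at 168 h. The 4 libraries were in the order of time with intervals apart. The ratio at 60 h against growth was 4.56 by the sum and 14.8 over the union of exons. In growth 2 of the 3 transcripts were single-exon pieces, and with multi-exon transcripts alone the log2 ratio was 2.69 on the log2(FPKM + 1) scale, against 1.97 by the sum. Klhl40 rose again at 168 h against 60 h, with a ratio of 3.32 by the sum and 3.15 over the union of exons.

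Klhl41 had 3.26 ± 1.21 FPKM in growth, 153 ± 2.38 FPKM at 60 h, 194 ± 3.79 FPKM at 120 h and 216 ± 2.94 FPKM at 168 h. Most of its increase lay in the first interval, with a ratio of 47.1 by the sum and 272 over the union of exons, where growth had 0.553 FPKM. Its log2 ratio at 168 h against 60 h was 0.49, which did not pass the limit. Klhl40 and Klhl41 share the lengths of 3 inner exons, 108, 186 and 147 bases. No word of 50 bases in their annotated transcripts was shared between any of the 10 genes. Of the words of Klhl41, 4.68% also occur in transcripts of other annotated genes. This was the largest share among the 10, with annotated genes that overlap each gene left out.

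Asb2, whose product is the substrate receptor of a cullin 5 ligase, had 3.92 ± 1.84 FPKM in growth, 16.3 ± 1.53 FPKM at 60 h, 18.3 ± 2.18 FPKM at 120 h and 44.2 ± 1.24 FPKM at 168 h. The 60 and 120 h intervals overlapped, and growth and 168 h stood apart from them. Asb2 rose at 60 h against growth, with a ratio of 4.15 by the sum and 28.0 over the union of exons. It rose again at 168 h against 120 h, with ratios of 2.42 and 2.56.

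The 2 starts of Asb2 shown above had different courses. The form from the upstream start, of 10 exons, had 10.3 ± 1.02 FPKM at 60 h, 12.6 ± 1.48 FPKM at 120 h and 44.2 ± 1.24 FPKM at 168 h. The form from the inner start, of 8 exons, had 5.91 ± 1.13 FPKM at 60 h and 5.67 ± 1.60 FPKM at 120 h and was not assembled at 168 h. The upstream form thus made up 63.6% of the FPKM of both forms at 60 h (56.9% to 70.4%), 69.0% at 120 h (60.5% to 77.6%) and all of it at 168 h. In growth the gene was below the 5 FPKM set for shares.

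**Figure D2:**
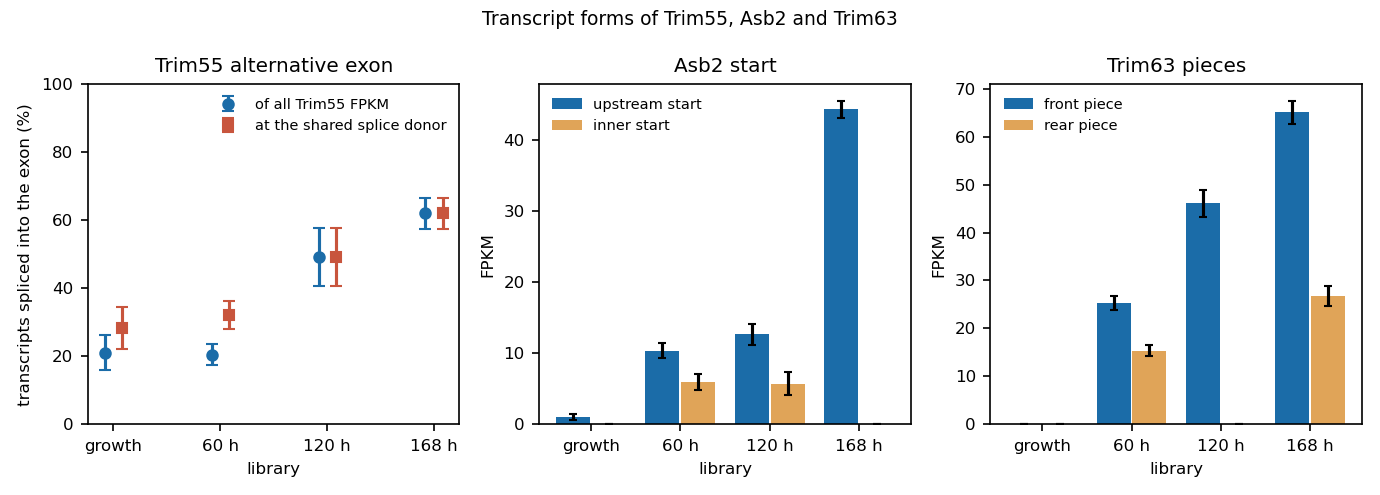
Left, percent of Trim55 transcripts that are spliced into the alternative exon in each library, with bars to the limits. Middle and right, FPKM of the 2 start forms of Asb2 and of the 2 pieces of Trim63, with bars to the confidence limits and no bar height where a form was not assembled. The Trim55 share goes from 21.0% in growth to 62.1% at 168 h, and the inner start of Asb2 is at 0 in growth and at 168 h.

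Trim55 was assembled in several forms. Some transcripts were spliced into an exon of 288 bases near the 3′ end of the coding sequence, and others passed over it. It is shown here because its use separated the early libraries from the late ones. It is read from the GENCODE transcript Trim55-201, where it spans bases 1363 to 1650, and capitals mark the exon between 6 bases of each neighbouring exon.
Trim55 exon: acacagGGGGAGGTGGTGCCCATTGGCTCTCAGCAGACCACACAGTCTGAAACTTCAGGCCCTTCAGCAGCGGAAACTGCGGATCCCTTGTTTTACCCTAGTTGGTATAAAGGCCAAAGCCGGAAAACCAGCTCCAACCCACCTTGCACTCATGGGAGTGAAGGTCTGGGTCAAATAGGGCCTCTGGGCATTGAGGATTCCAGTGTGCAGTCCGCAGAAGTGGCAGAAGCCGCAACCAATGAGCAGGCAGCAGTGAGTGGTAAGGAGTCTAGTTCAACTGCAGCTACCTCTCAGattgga
The exon is coding over its whole length, 96 codons, so that passing over it keeps the reading frame. Transcripts spliced into the exon made up 21.0% of the FPKM of Trim55 in growth (15.8% to 26.4%), 20.5% at 60 h (17.5% to 23.7%), 49.2% at 120 h (40.5% to 57.9%) and 62.1% at 168 h (57.5% to 66.7%). The intervals of growth and 60 h overlapped, as did those of 120 and 168 h, and the early pair lay below the late pair. The transcript counted in growth ended 158 bases into the exon, so that the whole exon was not assembled there. At 120 h part of the transcripts, 16.0 FPKM, held the exon and ended soon after it, whereas those of 60 and 168 h ran on into the last exon. The transcripts spliced into the exon had 6.44 ± 1.48, 11.2 ± 1.33, 27.9 ± 4.83 and 24.7 ± 1.77 FPKM in the order of time. Among transcripts that leave the same splice donor, a denominator chosen after the data were seen, the shares were 28.3% in growth and 32.1% at 60 h and the same later.

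A short Trim55 form that ends after the third exon had 7.997 ± 1.75 FPKM in growth and 7.15 ± 1.44 FPKM at 60 h. It was not assembled at 120 h or 168 h. Trim54, Trim55 and Trim63 have inner exons of the same lengths, 173 and 96 bases, and Trim54, Trim55 and Trim72 have inner exons of 96 and 23 bases in common length.

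**Figure D3:**
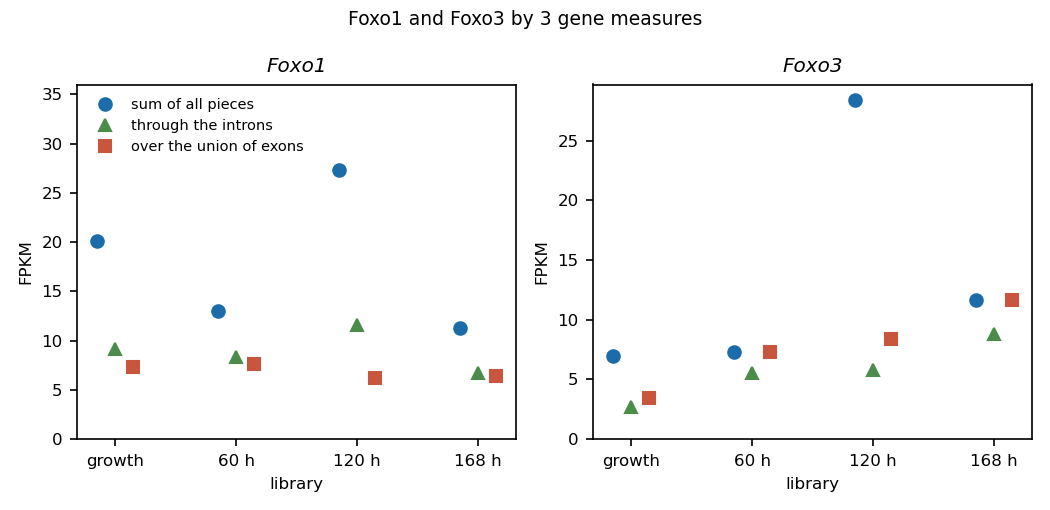
FPKM of Foxo1 (left) and Foxo3 (right) in the 4 libraries by the sum of all pieces (circles), through the introns (triangles) and over the union of exons (squares). The peak at 120 h is present in the sum, at 27.3 and 28.4 FPKM, and absent over the union of exons, at 6.22 and 8.36 FPKM.

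Foxo1 and Foxo3 encode the factors that carry the response to low insulin signalling. By the sum, Foxo1 had 20.1 ± 2.04 FPKM in growth, 12.97 ± 0.943 FPKM at 60 h, 27.3 ± 2.17 FPKM at 120 h and 11.3 ± 0.934 FPKM at 168 h. These values followed the number of assembled transcripts of the gene, 4, 2, 5 and 2. Of those in growth, 2 were spliced forms over the same span and the others single-exon pieces. Through the introns Foxo1 had 9.16, 8.31, 11.6 and 6.74 FPKM, again highest at 120 h. Over the union of exons it had 7.28, 7.63, 6.22 and 6.44 FPKM, and no comparison of Foxo1 passed the limit by that measure or by the intron measure.

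Foxo3 had 6.98 ± 1.27 FPKM in growth, 7.29 ± 1.73 FPKM at 60 h, 28.4 ± 3.26 FPKM at 120 h and 11.7 ± 2.56 FPKM at 168 h by the sum. At 120 h single-exon pieces held 20.7 ± 2.26 FPKM of this, and the spliced transcripts held 7.72 ± 2.35 FPKM. Through the introns Foxo3 had 2.69, 5.52, 5.79 and 8.83 FPKM. By the union measure it had 3.45, 7.28, 8.36 and 11.6 FPKM, in the order of time. The ratio at 168 h against growth was 3.38 over the union of exons, and Foxo3 rose by that measure and by the intron measure. By the sum the ratio was 1.67, which did not pass the limit.

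The later steps changed fewer of the 10 genes. At 120 h against 60 h, Klhl40, Foxo1 and Foxo3 rose by the sum and none fell, where 12.4% of all genes rose and 3.82% fell. By the other 2 measures none of the 10 passed the limit in either direction. Of all genes, 4.24% rose and 4.50% fell through the introns, and 2.18% rose and 4.51% fell by the union measure. Of all genes called by the sum 76.5% were higher at 120 h, against 64.5% under median-ratio scaling and 63.2% with equal library totals.

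From 120 h to 168 h, Fbxo32 and Asb2 rose by all 3 measures. Of all genes, 4.14% rose by the sum, 4.35% by the intron measure and 3.48% by the union measure. Foxo1 and Foxo3 fell by the sum and by neither of the other measures, where 10.1% of all genes fell by the sum, 4.32% by the intron measure and 2.65% by the union measure. Of all genes called by the sum 29.1% were higher at 168 h, and 39.6% under median-ratio scaling. This step and the one before share the 120 h library.

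From growth to 168 h the same 7 genes rose by the sum as at 60 h, and none fell. With Foxo3, 8 rose by each of the other measures. Of all genes, 15.6% rose and 18.6% fell by the sum, 15.7% rose and 18.4% fell by the intron measure, and 14.7% rose and 18.9% fell by the union measure.

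In the comparison of 168 h with 60 h, 5 rose by the sum, Trim63, Fbxo32, Trim72, Klhl40 and Asb2, and those without Trim72 rose by the other 2 measures. None fell. Of all genes, 8.63% rose and 6.69% fell by the sum, 5.87% rose and 6.71% fell by the intron measure, and 4.39% rose and 7.31% fell by the union measure. Of all genes called by the sum 56.3% were higher, and 46.2% with equal library totals. Trim54 and Klhl41 had ratios of 1.55 and 1.41 by the sum, below the limit, whereas Fbxo32, Klhl40 and Asb2 had ratios of 3.35, 3.32 and 2.72.

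By the union measure the order of the 10 genes changed between growth and 168 h. In growth it ran from Trim55 at 17.8 FPKM through Foxo1 at 7.28, Trim54 at 4.03, Foxo3 at 3.45, Fbxo32 at 2.00, Klhl40 at 1.41, Klhl41 at 0.553, Asb2 at 0.524 and Trim72 at 0.275 FPKM to Trim63, which was not assembled. The intervals of Trim54 and Foxo3 overlapped there, as did those of Klhl41 and Asb2, and of Asb2 and Trim72. At 168 h the order was Trim72 at 307 FPKM, Klhl41 at 215, Trim54 at 85.9, Klhl40 at 65.7, Trim63 at 42.7, Asb2 at 42.5, Trim55 at 33.8, Fbxo32 at 21.2, Foxo3 at 11.6 and Foxo1 at 6.44 FPKM. Trim63 and Asb2 were within each other's intervals at 168 h, and all other neighbours lay apart. Both Foxo genes were thus in the upper part of the order in growth and at its foot at 168 h.

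The genes around these 10 were read from 7 lists. Beside the counts at 60 h stand the shares over all genes given above, 11.0% risen and 15.5% fallen by the sum and 11.1% and 10.2% over the union of exons. Among 18 measured cullin and ring partners, the scaffold, adaptor and conjugating proteins that ligases share, 1 rose and none fell at 60 h against growth. It was Ube2l3, a conjugating enzyme gene, with 56.7 ± 1.52 FPKM at 60 h and no transcript given its name in growth. By the intron measure Ube2l3 was at 0 in both libraries, Cand2 rose and Ube2d3 fell, and by the union measure Cand2 and Ube2l3 rose. The median log2 ratio of the list was -0.00, against -0.19 over all genes. At 168 h against growth 2 rose and 3 fell of the 18 by the sum, where 15.6% of all genes rose and 18.6% fell.

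Among 25 other ubiquitin ligase genes studied in muscle, 3 rose and 3 fell at 60 h, with a median log2 ratio of -0.19, equal to that of all genes. Skp2, the receptor that marks the cell cycle inhibitor p27, fell from 16.4 ± 0.846 to 3.27 ± 0.294 FPKM. Smurf2, a ligase of TGF-beta signalling, had 10.4 ± 0.712 FPKM in growth and 7.05 ± 0.451 FPKM at 60 h and was not assembled at 120 or 168 h. Rnf123 rose by the sum from 15.6 ± 1.10 to 38.2 ± 1.55 FPKM and had 65.1 ± 3.04 FPKM at 168 h, with a log2 ratio at 60 h of 0.97 over the union of exons.

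Among 27 other Klhl and Kbtbd genes, the family of Klhl40 and Klhl41, 2 rose and 1 fell at 60 h by the sum and 5 rose and 2 fell over the union of exons. Klhl30 had 25.1 ± 1.08 FPKM in growth and 70.8 ± 1.39, 70.8 ± 1.94 and 61.7 ± 1.36 FPKM later. Klhl21 had 28.3 ± 1.02 FPKM in growth and 16.0 ± 0.586 FPKM at 60 h, and rose to 40.1 ± 0.978 FPKM at 168 h against 60 h. Among 14 other Asb genes, 5 rose and 2 fell at 60 h by the sum, and 1 rose and 1 fell over the union of exons. The number that rose in this list thus depended on the measure. Asb16, with no assembled transcript in growth, reached 3.52 ± 0.321, 11.9 ± 1.32 and 14.0 ± 1.21 FPKM later.

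Genes that control the Foxo factors gave 2 that rose and 5 that fell of 27 at 60 h by the sum, and 5 and 2 over the union of exons, so the balance of this list turned with the measure. Sgk1, a kinase that acts on Foxo3, fell from 24.0 ± 2.05 FPKM in growth to 6.02 ± 0.854 FPKM at 60 h and had 5.30 ± 0.455 FPKM at 168 h. Foxo6, the family member without the usual nuclear shuttling, rose from 1.59 ± 0.882 to 11.0 ± 0.798 FPKM and had 14.9 ± 0.971 FPKM at 168 h.

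Among 28 Foxo target genes outside the 10, 6 rose and 3 fell at 60 h by the sum and 8 rose and 2 fell over the union of exons, with median log2 ratios of 0.30 and 0.43. The medians over all genes were -0.19 and -0.03. Gadd45a, a growth arrest gene, rose from 10.8 ± 1.17 FPKM in growth to 203 ± 3.78 FPKM at 60 h and had 271 ± 4.67 FPKM at 168 h. Txnip, which binds thioredoxin, had 5.07 ± 2.13, 26.6 ± 2.46, 45.9 ± 4.76 and 91.3 ± 4.96 FPKM in the order of time and rose in both comparisons named here. Pdk4, the kinase that closes pyruvate dehydrogenase, went the other way and fell from 32.6 ± 1.13 to 6.63 ± 0.570 FPKM at 60 h, with 14.3 ± 0.980 FPKM at 168 h. By 168 h, against growth, 9 rose and 2 fell by the sum, and 11 rose and 1 fell over the union of exons. Of all genes, 15.6% rose and 18.6% fell there by the sum, and 14.7% rose and 18.9% fell over the union of exons.

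Among 29 substrates and partners of the ligases, 17 rose and 5 fell at 60 h, with a median log2 ratio of 1.47. This list holds many sarcomere genes. Actn2, the Z-disc alpha-actinin, had no assembled transcript in growth and reached 99.8 ± 1.64, 180 ± 3.21 and 244 ± 2.57 FPKM later. Cav3, the muscle caveolin, rose from 2.28 ± 0.805 to 203 ± 5.47 FPKM.

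**Figure D4:**
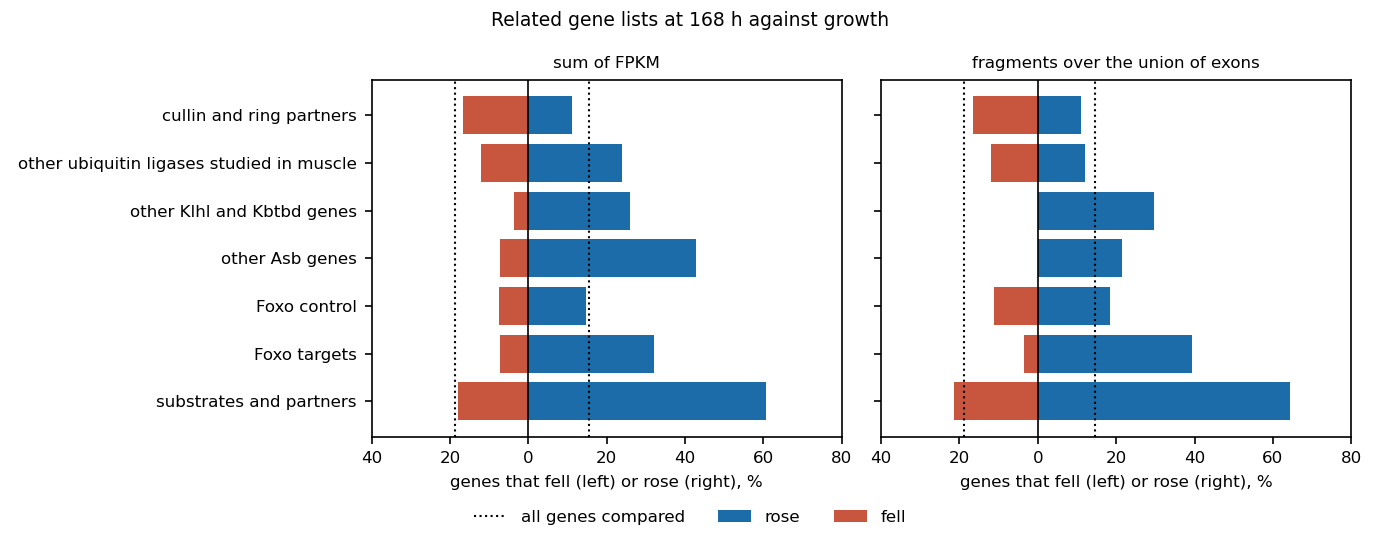
Percent of the genes compared in each of 7 lists that rose (right of 0) or fell (left of 0) at 168 h against growth, by the sum of FPKM (left panel) and over the union of exons (right panel), with dotted lines at the shares of all genes. In the list of substrates and partners 17 of 28 rose by the sum and 18 of 28 over the union of exons. Of all genes, 15.6% and 14.7% rose by these measures.

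The nearest time courses to these genes among 9834 other protein-coding genes were found by the root mean square difference of log2(FPKM + 1) values, centred on each gene's mean over the 4 libraries. The nearest to Trim63 was Sgca at 0.22, the nearest to Fbxo32 was Sema6c at 0.08, and the nearest to Trim54 was Pdlim3 at 0.07. The nearest to Klhl41 was Adamtsl2 at 0.13, to Klhl40 Map1lc3a at 0.10, to Trim72 Try4 at 0.20 and to Asb2 Loxl1 at 0.14. The nearest to Trim55 was Ostf1 at 0.01. The nearest to Foxo3 was Slc26a11 at 0.04, found from the sum that peaks at 120 h. With 4 points a gene, these distances are a description.

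In the coordinates of the deposited files (build not given in the sources used), Trim63 lay on chromosome 4 from 133870952 to 133885550, and Fbxo32 on chromosome 15 from 58011023 to 58046468. Trim55 lay on chromosome 3 from 19544394 to 19592588, and Asb2 on chromosome 12 from 104559351 to 104594167. The library protocol describes no marking of strand. Annotated genes on the opposite strand overlap Trim54, Trim72, Klhl40, Asb2, Fbxo32 and Foxo1, and their fragments could not be separated from those of these 6 genes. Annotated on the same strand are BC002189, which overlaps Trim55, and Gm38034, which overlaps Foxo1.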

How the data were processed

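Polyadenylated RNA of 4 C2C12 libraries, 1 for each time point, was sequenced as paired ends, per the labels. The authors deposited assembled transcripts with an RPKM and its confidence limits written as text beside each transcript, and a score column that was not used here. Per the submitters' processing notes, TopHat 1.0.13 and Cufflinks 0.8.0 were named, with no role given. The genome build: not given in the sources used here. The RPKM are called FPKM because the deposited limits imply fragment counts.

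Transcripts were named by matching runs of exon and intron lengths to the GENCODE M21 annotation, which named 100665 of 293624 transcripts, with Python 3.11.15. Single-exon transcripts were counted where a gene's assembled exons covered 50% of them or more. Intervals over the union of exons were 2 square roots of the fragment count, and those through the introns took the relative error of the sum. The naming was tried on annotated transcripts moved along their chromosomes, and the size rule on simulated fragment counts. The outcomes are not reported here. Naming of incomplete pieces and of single-exon transcripts was not tried. In the text, 168 h against 60 h is an extra comparison, used to choose list genes.

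The 10 genes and the 7 lists were chosen with earlier results of these data known. Named from each list were genes with at least 5 FPKM and the largest calls, 3 at 60 h against growth and 2 at 168 h against 60 h; not all are printed. Some genes that these rules take are not reported here. The pieces of Trim63, the short forms of Trim72 and Trim55 and the Foxo pieces were chosen after their values were seen. Of the lists, 10 genes could not be named in any library. Alternatives tried were another pseudocount, other minimums, 2 scalings, 3 other ways to measure a gene, a 4-fold rule and genes assembled in both libraries.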

Additional observations from a re-analysis of the deposited data

How the results depend on the processing

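With 1 library for each time point, no library could be left out and no interval covers the spread between cultures. No paired analysis was possible because each group has 1 library. At 60 h against growth 7 genes rose, and 4 did under a 4-fold rule. At 120 h against 60 h 3 rose; 1 did under median-ratio scaling and under equal totals, and 0 did through the introns, over the union of exons, with multi-exon transcripts alone and under the 4-fold rule. At 168 h against 120 h 2 rose, against 4 under either scaling (with Trim63 and Trim72) and 0 under the 4-fold rule. The 2 that fell there became 0 through the introns, over the union of exons, with multi-exon transcripts alone and under the 4-fold rule. Over the union of exons the log2 ratio of Foxo1 turned to -0.26 at 120 h against 60 h and to 0.044 at 168 h against 120 h. That of Foxo3 at 168 h against 120 h turned to 0.53 through the introns, 0.43 over the union of exons and 0.54 with multi-exon transcripts alone. These measures count a gene assembled in pieces once, or leave the single-exon pieces out. The Trim55 share at the shared splice donor, an alternative chosen after seeing the data, was 28.3% in growth and 32.1% at 60 h. Of the alternative log2 ratios of the 10 genes, 361 kept their side of the limit, 24 no longer passed it and 8 newly passed it. Another 5 turned, with the limit passed by the main rule or by the alternative. Ratios that passed it by neither stand among the 361 even where their direction turned. An example is Foxo1 at 60 h against growth, with -0.60 by the sum and 0.06 over the union of exons.

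The list counts moved more, and the cause was not tested. At 60 h against growth the numbers that rose and fell ranged over 0 to 2 and 0 to 1 for cullin and ring partners, 0 to 5 and 1 to 5 for other ligases, 0 to 5 and 0 to 2 for Klhl and Kbtbd genes, 1 to 5 and 0 to 2 for Asb genes, 1 to 5 and 1 to 5 for Foxo control, 2 to 8 and 1 to 3 for Foxo targets, and 13 to 18 and 0 to 5 for substrates and partners. At 168 h against growth they ranged, in the same order, over 1 to 3 and 0 to 4, 2 to 6 and 1 to 4, 1 to 10 and 0 to 1, 1 to 6 and 0 to 1, 2 to 6 and 0 to 4, 3 to 12 and 0 to 2, and 13 to 18 and 3 to 6.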
